A study of Mus musculus with 2 samples.

Results

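Resident macrophages that express Cd163 and Fcna were examined by single cell RNA-seq in hind limb muscle of mdx mice, with 163 such cells among 4527 in the Ctrl library and 124 among 3483 in the dKO library (287 of 8010 in all). Unique molecular identifiers (UMIs), which count captured transcripts, were used as deposited, and a cell had to meet each of the following conditions. It had at least 500 detected genes and at least 2 of the 5 macrophage genes Csf1r, Adgre1, Fcgr1, C3ar1 and Cd68. It had no UMI of Pdgfra, Cdh5, Cd3e or Cd79a, which mark fibro/adipogenic progenitors (FAPs), endothelial cells, T cells and B cells. It had fewer than 5 UMIs of the monocyte genes Ly6c2 and Chil3 together and fewer than 3 of 6 cell cycle genes. Cells that met these conditions are called gated macrophages, and the resident macrophages among them had at least 3 of the 6 genes Fcna, Cd163, Ccl24, Cbr2, Lyve1 and F13a1, called the rule genes below. The other gated macrophages, with fewer than 3, served for comparison.

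Both libraries came from C57BL/10ScSn mdx mice, which lack dystrophin and model Duchenne muscular dystrophy, and all mice carried Pax7 CreERT2 and R26YFP. Ctrl mice were Yy1 +/+ and dKO mice were Yy1 f/f. The Pax7 promoter drives the tamoxifen-dependent Cre in muscle stem cells, so macrophages were not the cells targeted for deletion. Yy1 encodes a transcription factor with zinc fingers. Tamoxifen was injected on 5 consecutive days at 1.5 months of age per the methods, although the label of Ctrl says no treatment, and muscle was taken 1 month later. Each library held live mononuclear cells pooled from 3 mice, with red blood cells lysed. With 1 library per group there was no replicate, so no test between Ctrl and dKO could be made, and a difference between the libraries cannot be told apart from a difference between these pools or preparations. All intervals are 95% and cover counting error only.

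Resident macrophages live in muscle between the fibres and near vessels, where they clear debris and haem, take up glycoproteins through scavenger and lectin receptors and release chemokines. In many mouse tissues they carry Mrc1, Cd163, Folr2 and Lyve1, and can last for long periods without replacement from blood. Monocytes that enter dystrophic muscle after fibre damage carry Ccr2 and Ly6c2 and turn into macrophages that express Spp1, Gpnmb and Fabp5.

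The library totals were 45556596 UMIs in Ctrl and 33815155 in dKO, of which resident macrophages held 1344968 and 853409. Their median depth was 6412 UMIs per cell in Ctrl and 5957.5 in dKO, below that of the other macrophages (8445 and 7266). The libraries shared 7 cell barcodes, of which 0 belonged to resident macrophages. Levels are given as UMIs of a gene per 1000000 UMIs summed over the cells of a class (CPM).

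The cells carried the markers of their name. The 8 genes used as markers were each at least 3.77 times higher in resident than in other macrophages in Ctrl and at least 3.82 times in dKO. As 6 of these genes chose the cells, their ratios describe the choice and were not tested. Lyve1, a hyaluronan receptor of lymphatic endothelium and of some resident macrophages, was at 160 CPM in Ctrl and 411 CPM in dKO, against 0.435 and 1.22 CPM in other macrophages. Lyve1 was also found in 4.29% and 6.12% of endothelial cells, at 124 and 335 CPM over all of them. Cd163, the receptor for haemoglobin bound to haptoglobin, was at 210 and 239 CPM, against 4.24 and 5.24 CPM in other macrophages. Fcna, a lectin of the complement system, was at 128 and 214 CPM, against 3.48 and 2.1 CPM. In GRCm38 these genes lie at chr7:110850607-110863239 (Lyve1, minus strand), chr6:124304656-124330527 (Cd163, plus strand) and chr2:25624666-25628030 (Fcna, minus strand), and all are protein coding. Resident macrophages made up 3.6% of the Ctrl and 3.56% of the dKO cells but held 66.7% and 70.4% of all Fcna UMIs, and 68.9% and 68.5% of all Cd163 UMIs.

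The rule did not use Ccl8, a CC chemokine, or Mrc1, the mannose receptor. Ccl8 was at 1580 (1510 to 1650) CPM in Ctrl and 3870 (3740 to 4000) CPM in dKO resident macrophages, against 164 and 429 CPM in other macrophages, 13 and 123 CPM in monocytes and 42.9 and 48 CPM in FAPs. With every cell thinned to 2000 UMIs and shallower cells dropped (9 in Ctrl, 7 in dKO), a Ccl8 UMI was found in 42.2% of Ctrl and 71.8% of dKO resident macrophages (54% and 83.9% without thinning). In FAPs, which should lack it, the thinned shares were 5.21% and 7.03%. Mrc1 was at 1230 and 1400 CPM, against 328 and 367 CPM in other macrophages. The heat map of markers by class shows Ccl8 and Mrc1 at their highest level in resident macrophages.

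**Figure D1:**
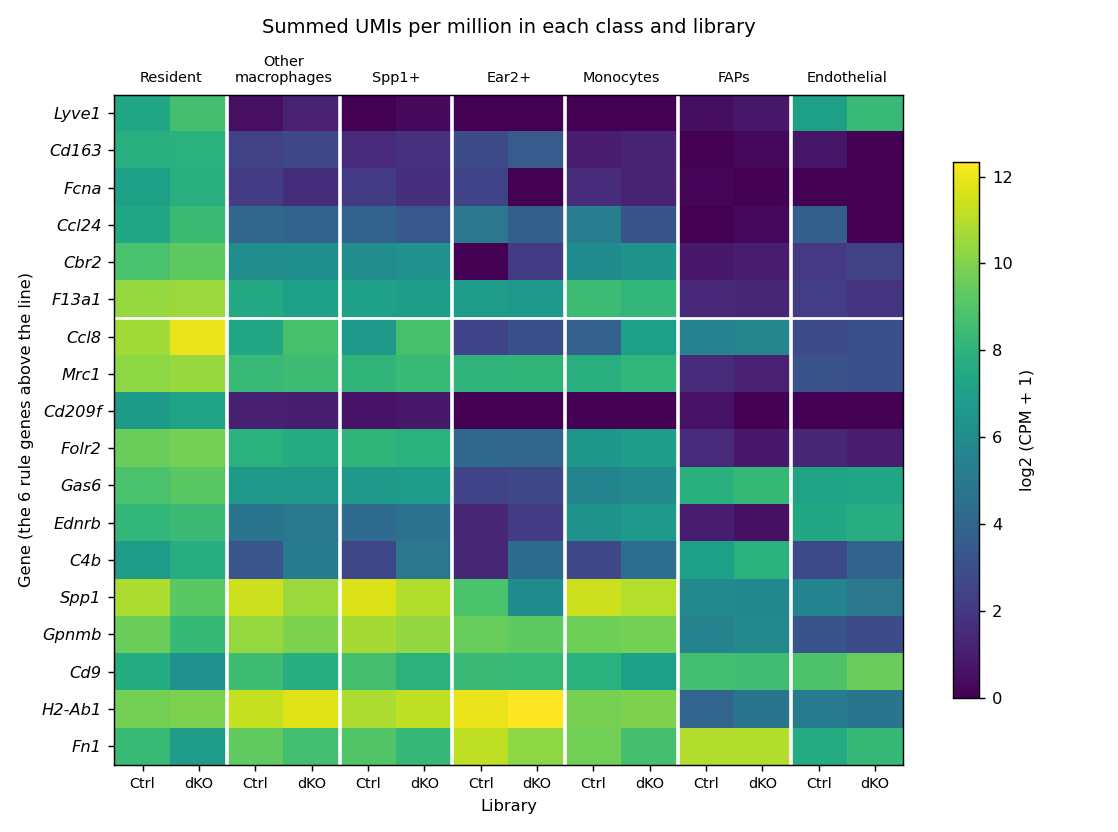
Heat map of the summed level, as log2 of CPM plus 1, of the 6 rule genes (above the line) and 12 other genes (below it) in resident macrophages, other macrophages, their Spp1+ and Ear2+ subsets, monocytes, FAPs and endothelial cells, with Ctrl and dKO side by side. Resident macrophages have the highest Ccl8 and Mrc1 levels of these classes, and endothelial cells also carry Lyve1.

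The gated macrophages formed a gradient without a gap at the threshold. In Ctrl, 33.7% of 1108 gated macrophages had none of the 6 rule genes, 31% had 1, 20.7% had 2, 7.76% had 3, 3.7% had 4, 2.35% had 5 and 0.903% had all 6. In dKO, 44.3% of 813 had none, 26.2% had 1, 14.3% had 2, 6.77% had 3, 4.67% had 4, 2.21% had 5 and 1.6% had all 6. Cells just inside the threshold, with 3 rule genes, numbered 86 in Ctrl and 55 in dKO, and cells just outside it, with 2, numbered 229 and 116. F13a1, the A chain of coagulation factor XIII, was found in 94.2% and 100% of the cells with 3 and in 96.1% and 92.2% of those with 2, and Cbr2, a carbonyl reductase, in 86% and 85.5% against 72.9% and 76.7%. Lyve1 was found in 23.3% and 20% of the cells with 3 but in 1.31% and 3.45% of those with 2. The median depth of cells with 3 rule genes was 9121.5 UMIs in Ctrl and 6814 in dKO, and that of cells with 2 was 8258 and 8103.

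Genes that the rule did not use differed along this gradient. Mrc1 was at 533, 870, 1320 and 2570 CPM in Ctrl cells with 2, 3, 4 and 5 or 6 rule genes, and at 705, 925, 1560 and 2190 CPM in dKO. Folr2, the folate receptor of resident macrophages, was at 334, 529, 913 and 1510 CPM in Ctrl and at 333, 602, 1030 and 1290 CPM in dKO. Cd209f, a lectin of the DC-SIGN family, went from 2.7 (0.992 to 5.89) CPM with 2 rule genes to 445 (362 to 541) CPM with 5 or 6 in Ctrl, and from 5.79 (2.12 to 12.6) CPM to 375 (299 to 464) CPM in dKO. Cells with 5 or 6 rule genes thus carried more Mrc1, Folr2 and Cd209f than cells at the threshold in both libraries.

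Spp1 and H2-Ab1 ran the other way. Spp1, the secreted matrix protein osteopontin, was at 2840, 2530, 876 and 165 CPM along the same steps in Ctrl and at 2570, 1030, 213 and 26.8 CPM in dKO. H2-Ab1, a chain of MHC class II, was at 1340, 903, 934 and 632 CPM in Ctrl and at 2010, 1380, 634 and 473 CPM in dKO. Ccr2, a gene of recruited monocytes, followed no such order, at 192, 169, 415 and 129 CPM in Ctrl and at 121, 102, 40.6 and 71.4 CPM in dKO. Cells with 3 rule genes still held much Spp1, and they made up 86 of 163 Ctrl and 55 of 124 dKO resident macrophages.

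**Figure D2:**
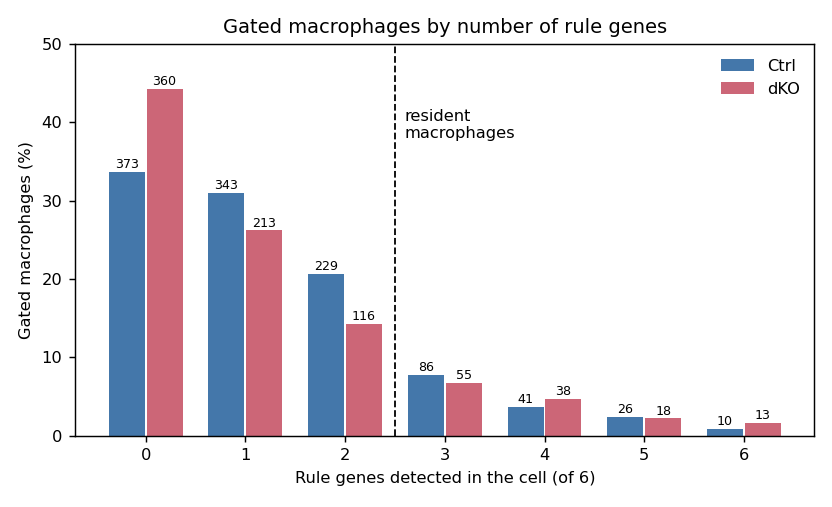
Share of gated macrophages (percent, bars from 0) by the number of the 6 rule genes detected in the cell, for Ctrl and dKO, with the number of cells above each bar and the threshold as a dashed line. The shares decrease from left to right with no gap at the threshold, with 229 and 116 cells just left of it and 86 and 55 just right of it.

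Beyond their markers, resident macrophages held more RNA of the Cd209 lectins and of C4b, and less of MHC class II, than other macrophages. As whole lists, the 25 genes of the resident programme outside the rule summed to 2.73 times their level in other macrophages in Ctrl and 3.37 times in dKO. Scavenger and lectin receptors summed to 0.922 and 0.9 times, and trophic and matrix factors to 0.999 and 1.11 times. Alternative activation genes summed to 2.03 and 2.08 times, but this list holds the rule genes Cd163 and Ccl24, so part of its ratio describes the choice of cells. Of 3054 genes with at least 100 UMIs in resident macrophages of both libraries together, 222 (7.27%) were at least 1.5 times higher than in other macrophages in both libraries and 49 (1.6%) at least 1.5 times lower. These ratios compare cells chosen by their own expression and describe the class. The Cd209 lectins were among the highest outside the rule. Cd209f was 97.7 times higher in Ctrl and 138 times in dKO, Cd209g 195 and 66 times and Cd209d 25 and 65.4 times. Clec10a, a galactose-binding lectin, was 6.83 and 5.32 times higher, and Colec12, a scavenger receptor with a collagen stalk, 4.77 and 7.71 times. C4b, a complement component, was 13.1 and 6.25 times higher. Ednrb, the endothelin receptor B, was 11.3 and 11.5 times higher, and Gas6, the bridge between dying cells and TAM receptors, 4.42 and 5.67 times. Tfrc, the transferrin receptor, was 3.19 and 2.74 times higher, and Maf, a transcription factor of resident macrophages, 3.61 and 3.13 times.

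The 11 genes of the MHC class II list summed to 0.416 of their level in other macrophages in Ctrl and 0.35 in dKO. H2-Eb1 was at 0.346 and 0.258, Cd74, the invariant chain, at 0.412 and 0.385, and Gpnmb, a glycoprotein of lipid-laden macrophages, at 0.571 and 0.327 of the level in other macrophages. The low MHC class II sum was shared with monocytes, where it was 5660 CPM in Ctrl and 6320 CPM in dKO, against 6010 and 6860 CPM in resident macrophages.

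The share of resident macrophages among macrophages differed between the libraries by less than counting error with the rule as given, but not with a looser one. They were 14.7% (12.7 to 16.9) of gated macrophages in Ctrl and 15.3% (12.8 to 17.9) in dKO, a difference of 0.541 percentage points (-2.65 to 3.83). Of all cells with at least 500 genes they were 3.76% (3.21 to 4.37) of 4335 and 3.72% (3.11 to 4.43) of 3329. With at least 2 rule genes in place of 3, the shares of gated macrophages were 35.4% (32.6 to 38.3) in Ctrl and 29.5% (26.4 to 32.8) in dKO, a difference of -5.86 points that is beyond counting error. With at least 4 rule genes the difference was 1.54 points, and with the rule on thinned cells 2.04 points, both within counting error, so its sign depended on the rule. Live cell sorting and dissociation also set these shares.

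Within resident macrophages, dKO had more RNA of interferon, chemokine and stress genes than Ctrl and less of monocyte genes. Of the 3054 genes, 201 (6.58%) were at least 1.5 times higher in dKO and 154 (5.04%) at least 1.5 times lower, which are called higher and lower below. The median gene differed by -0.05 on the log2 scale. Ratios of summed UMIs also carry the different mix, in the libraries, of cells with 3 and with more rule genes. The genes with 100 UMIs were 12.2% of those in the files and held 88.5% of the UMIs of these cells. Yy1 itself was at 134 CPM in Ctrl and 121 CPM in dKO, a ratio of 0.902 (0.701 to 1.16), in cells where it was not targeted.

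Of the marker genes, Lyve1 was 2.57 times (2.17 to 3.06) and Ccl8 2.45 times (2.32 to 2.59) higher in dKO. Ccl24, an eotaxin that attracts eosinophils, was at 168 CPM in Ctrl and 341 CPM in dKO, 2.03 times higher (1.7 to 2.43). Fcna was 1.68 times higher (1.35 to 2.08). Lyve1, Ccl24 and Fcna are rule genes, so their ratios describe the chosen cells and support nothing further. With the rule on thinned cells the log2 difference was 0.39 for Ccl8 and 0.35 for Ccl24, against 1.29 and 1.02, which ended both calls, and with at least 4 rule genes that of Fcna was 0.28, against 0.75. Cbr2, Cd163, Mrc1 and F13a1 had ratios of 1.39, 1.14, 1.14 and 1.05 and were not past the 1.5-fold limit. In other cells, the dKO to Ctrl ratio of Ccl24 was 0.878 in other macrophages, that of Ccl8 was 2.62 there and 9.48 in monocytes, and that of Lyve1 was 2.71 in endothelial cells. The ratio of Ccl8 was thus above the limit in each of these 3 myeloid classes.

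**Figure D3:**
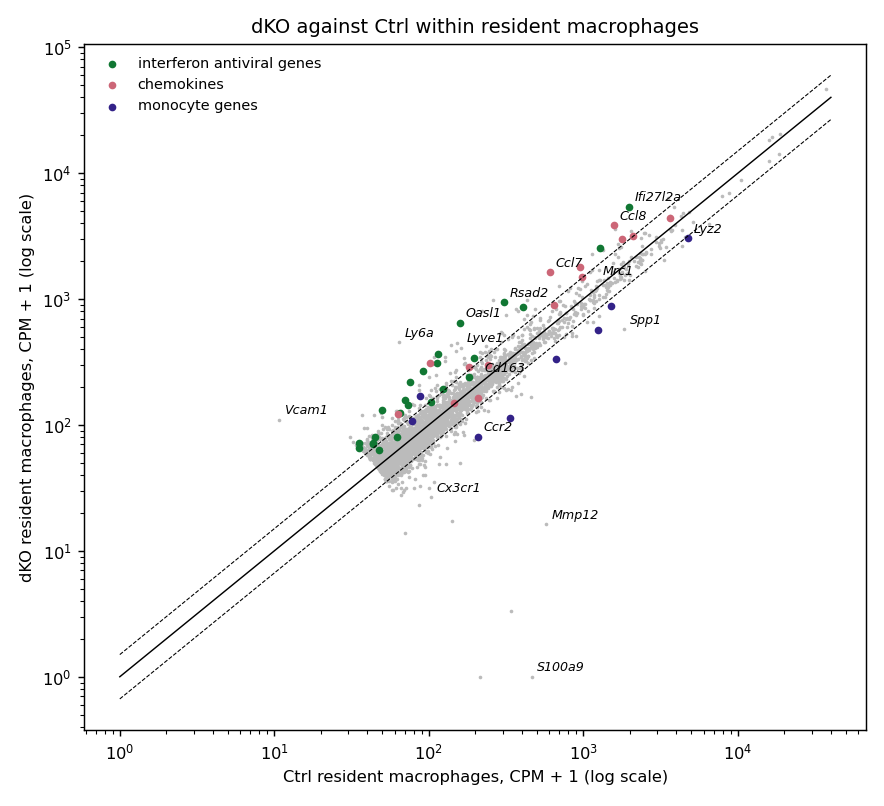
Each point is a gene with at least 100 UMIs in resident macrophages of both libraries together, as CPM plus 1 on log axes, dKO (vertical) against Ctrl (horizontal). The solid line marks equal levels and the dashed lines 1.5-fold, and Oasl1, Ly6a and Vcam1 lie above the upper dashed line, Ccr2, Cx3cr1 and Mmp12 below the lower one, and S100a9 has no UMI in dKO.

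Interferon antiviral genes were higher in dKO as a group. Of the 38 genes of the list 24 could be compared, with a median log2 difference of 0.98. Of these, 20 (83.3%) were higher in dKO and 0 lower, against 6.58% and 5.04% of all genes compared. The summed level of the list was 5910 CPM in Ctrl and 14000 CPM in dKO, a ratio of 2.37 (2.31 to 2.44). The median cell held 50 UMIs of these genes per 10000 in Ctrl and 147 in dKO. Oasl1, a relative of the 2'-5' oligoadenylate synthetases, was at 159 (139 to 182) CPM in Ctrl and 648 (595 to 704) CPM in dKO, and Rsad2, the antiviral enzyme viperin, at 306 (277 to 337) CPM and 939 (875 to 1010) CPM. Isg15, a ubiquitin-like modifier, was at 113 (95.8 to 132) CPM and 362 (323 to 405) CPM. Irf7, a transcription factor that amplifies the interferon response, was at 90 CPM and 268 CPM. Ifi27l2a gave 36.6% of the list's UMIs and was at 1980 and 5420 CPM, and Ifitm3, which blocks viral entry, was at 1290 and 2520 CPM. Among the genes compared and not called were Ddx58, Slfn5 and Parp14, with ratios of 1.33, 1.32 and 1.47. With the rule on thinned cells Ifit3 (0.13 on the log2 scale), Oas1a (0.09), Ifi204 (0.37), Ifi211 (-0.13), Irf9 (0.48) and Zbp1 (0.35) were not past the limit. Ifit1 (0.55) was not past it as the mean of each cell's own CPM. Ifi27 was at 98.9 CPM in Ctrl and 30.5 CPM in dKO and is not in the list.

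The promoters of genes that were higher in this list are shown because many hold the letters of the interferon-stimulated response element, written here as GAAA followed by any 2 bases and a further GAAA. Windows of 300 bases around the annotated start came from RefSeq (GRCm38.p6) and were searched on both strands, where matches could overlap each other. The letters were in 1131 of 32851 windows (3.44%), and in at least 1 window of 3.99% of 27025 genes. Of the 38 genes 27 had a window and 15 of them (55.6%) held the letters, as did 10 of the 16 matched genes that were higher (62.5%). Both matched genes that were compared and not called, Ddx58 and Slfn5, held them too. The sequences are given 5′ to 3′ on the strand of the gene, with the matching letters in capitals. Rsad2 (chr12:26456403-26456702, minus strand) and Ifit1 (chr19:34640639-34640938, plus strand) hold 1 and 2 matches on the strand opposite to the gene, and Isg15 (chr4:156200769-156201068, minus strand) holds 3 overlapping matches. Oasl1 (chr5:114922990-114923289, plus strand) holds none in this window.
Rsad2: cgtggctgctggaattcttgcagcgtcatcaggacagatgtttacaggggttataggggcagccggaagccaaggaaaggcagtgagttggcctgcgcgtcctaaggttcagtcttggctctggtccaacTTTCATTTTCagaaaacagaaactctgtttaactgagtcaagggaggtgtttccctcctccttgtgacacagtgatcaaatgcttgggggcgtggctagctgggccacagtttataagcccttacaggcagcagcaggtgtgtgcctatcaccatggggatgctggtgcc
Ifit1: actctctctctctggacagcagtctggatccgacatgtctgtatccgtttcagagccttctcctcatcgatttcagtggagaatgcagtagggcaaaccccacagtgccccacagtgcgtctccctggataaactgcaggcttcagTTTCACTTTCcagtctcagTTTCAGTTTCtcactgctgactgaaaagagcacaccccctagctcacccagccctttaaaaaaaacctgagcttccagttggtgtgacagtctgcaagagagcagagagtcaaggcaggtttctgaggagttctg
Isg15: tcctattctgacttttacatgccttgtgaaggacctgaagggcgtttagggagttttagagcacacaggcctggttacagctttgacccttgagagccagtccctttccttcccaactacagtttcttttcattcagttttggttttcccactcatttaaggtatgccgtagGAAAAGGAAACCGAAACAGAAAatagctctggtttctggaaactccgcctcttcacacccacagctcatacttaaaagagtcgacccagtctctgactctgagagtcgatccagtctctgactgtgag
Oasl1: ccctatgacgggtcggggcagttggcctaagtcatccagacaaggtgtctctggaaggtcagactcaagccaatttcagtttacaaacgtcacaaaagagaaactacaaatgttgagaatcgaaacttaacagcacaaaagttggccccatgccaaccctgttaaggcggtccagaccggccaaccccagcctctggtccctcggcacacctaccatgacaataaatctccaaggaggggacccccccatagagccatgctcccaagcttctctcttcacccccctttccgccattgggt
The first match starts 120 bases before the annotated start in Rsad2, 104 bases before it in Ifit1 and 78 bases before it in Isg15. Of the 17 chemokine genes with a window, Cxcl10 and Cxcl14 held these letters (11.8%). A match in these letters describes the sequence and does not show that a factor was bound.

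The interferon genes were higher in dKO in other cells as well. In other macrophages, 37 of 38 were higher (5.79% of all genes compared there) and 0 lower (2.44%), with a summed ratio of 2.2 (2.17 to 2.23), and in monocytes 33 of 34 were higher (5.29%) and 0 lower (3.24%), with a ratio of 2.1 (2.05 to 2.14). In FAPs 31 of 36 were higher (2.44%) and 0 lower (3.1%), with a ratio of 1.88, and in endothelial cells 8 of 30 were higher (4.29%) and 3 lower (6.52%), with a ratio of 1.14. Within resident macrophages the ratio was 2.18, 2.33 and 2.24 in cells with 3, 4 and 5 or 6 rule genes, so cells near and far from the threshold had much the same ratio. Cells with 3 rule genes were 86 of 163 in Ctrl, at a median of 9121.5 UMIs, and 55 of 124 in dKO, at 6814 UMIs. The ratio of 2.37 over all resident macrophages was above each of these and also carries this different mix of cells. The level of the list in resident macrophages was 1.46 times that of other macrophages in Ctrl and 1.58 times in dKO.

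**Figure D4:**
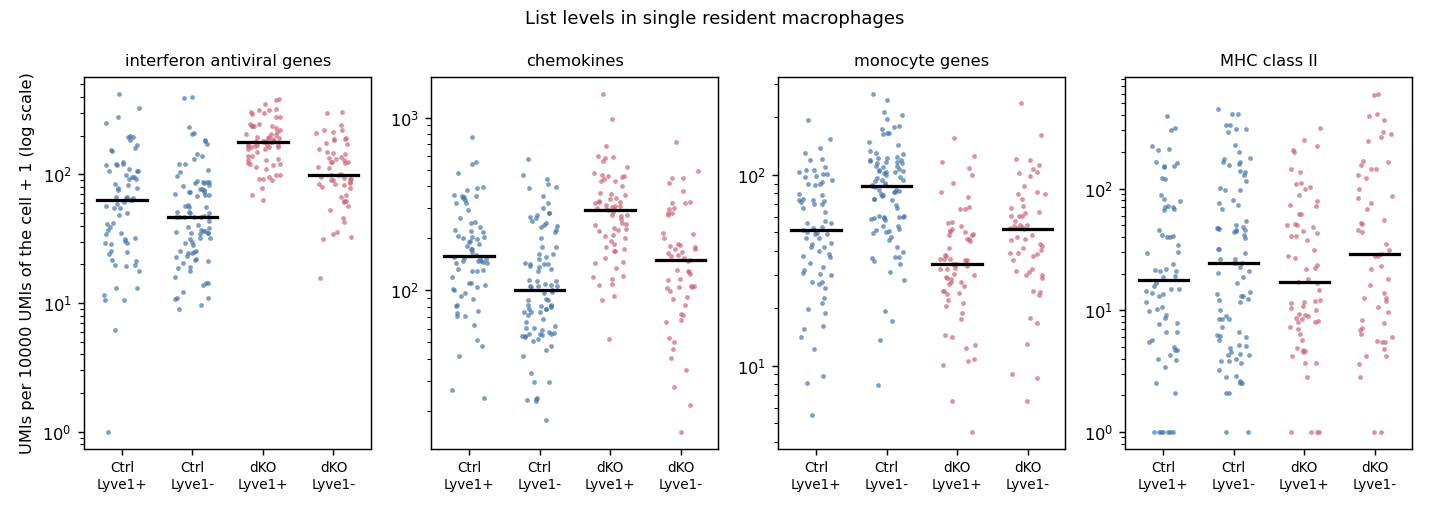
Each point is a resident macrophage of the Ctrl or dKO library, split by whether a Lyve1 UMI was found (Lyve1+ or Lyve1-), with bars at the medians and the level of 4 gene lists as UMIs per 10000 UMIs of the cell plus 1 on log axes. Over all cells the interferon antiviral median is 50 per 10000 in Ctrl and 147 in dKO, and single cells of the libraries overlap in each list.

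Chemokines were the next group. Of 23 genes 14 were compared, and 9 (64.3%) were higher in dKO and 0 lower, against 6.58% and 5.04% of all genes compared. The sum went from 13300 CPM in Ctrl to 21700 CPM in dKO, a ratio of 1.63 (1.6 to 1.67). Ccl12 and Ccl7, ligands of Ccr2, were at 100 and 611 CPM in Ctrl and at 312 and 1640 CPM in dKO. Ccl4, a chemokine of inflammation, was at 955 and 1810 CPM, and Cxcl2, which attracts neutrophils, at 1780 and 2990 CPM. Ccl6 was at 2110 and 3170 CPM and Ccl9 at 984 and 1490 CPM. Cxcl10, itself induced by interferon, was at 62.5 and 122 CPM, but its direction turned when the rule asked for 4 genes or was applied to thinned cells. With at least 2 rule genes Cxcl2 (0.15 on the log2 scale), Ccl6 (0.49) and Ccl9 (0.44) were not past the limit. Pf4, a platelet and macrophage chemokine with the most UMIs of the list, was at 3620 and 4370 CPM, and Ccl2 was at 645 and 893 CPM, both under the limit. The ratio of the sum was 1.34 in cells with 3 rule genes, 1.52 with 4 and 1.77 with 5 or 6, and 1.22 in other macrophages (10 of 19 genes higher), 1.19 in monocytes and 1.37 in FAPs. Resident macrophages held 1.78 times the chemokine level of other macrophages in Ctrl and 2.38 times in dKO.

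Heat shock and immediate early genes, which dissociation of tissue can induce, were also higher. Of 26 genes 23 were compared, and 12 (52.2%) were higher and 0 lower, against 6.58% and 5.04% of all genes compared. The sums were 18100 CPM in Ctrl and 29800 CPM in dKO, a ratio of 1.64 (1.61 to 1.67). Hsph1 and Dnajb1, chaperone partners of Hsp70, were at 219 and 152 CPM in Ctrl and at 809 and 448 CPM in dKO. Hspa1b, an inducible Hsp70, was at 3540 and 6350 CPM, and Hsp90aa1 at 1600 and 3570 CPM. Many of these calls did not hold in every alternative. With the rule on thinned cells Hspa1b (0.22 on the log2 scale), Hspa1a (0.42), Atf3 (0.43), Klf2 (0.35), Jund (0.06), Nr4a1 (-0.09) and Btg2 (-0.26) were not past the limit. Hsp90aa1 was not past it with at least 4 rule genes (0.51), nor Dnajb1 (0.56) and Ier3 (0.47) with at least 2. Egr1, an immediate early transcription factor, was at 126 and 345 CPM, whereas Fos was at 450 and 571 CPM and under the limit. The summed ratio was 1.32 in other macrophages, 1.59 in their Ear2+ subset, 1.02 in monocytes, 0.919 in FAPs and 0.96 in endothelial cells. It was 1.84 in resident macrophages with 3 rule genes and 1.32 and 1.38 with 4 and with 5 or 6, and on the log2 scale it was 0.72, or 0.29 when the rule was applied to thinned cells. The part of handling in this difference was not tested.

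Among NF-kB and inflammatory genes, 7 of 15 compared were higher (46.7%) and 0 lower, against 6.58% and 5.04% of all genes compared. The summed ratio was 1.48 (1.41 to 1.55). Il10, an anti-inflammatory cytokine, was at 126 (108 to 147) CPM in Ctrl and 319 (282 to 359) CPM in dKO, and Tnf, a pro-inflammatory cytokine, at 85.5 (70.6 to 103) CPM and 205 (176 to 238) CPM. Cd14, the co-receptor for lipopolysaccharide, was at 489 and 826 CPM, but not past the limit with at least 2 rule genes (0.3 on the log2 scale). Il10 and Tnf act in opposite directions and both were higher. Of the other genes called, Nfkbiz (0.42), Tnfaip3 (0.15) and Socs3 (-0.09) were not past the limit with the rule on thinned cells. Nlrp3 (0.31) was not past it with at least 2 rule genes. In cells with 4 rule genes the ratio of the list was 0.977, against 1.68 with 3 and 1.89 with 5 or 6.

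Among glucocorticoid-induced genes, 4 of 9 compared were higher (44.4%) and 1 lower (11.1%), against 6.58% and 5.04% of all genes compared. The list includes the rule gene Cd163, which was not called. Mt2 and Mt1, the metallothioneins that bind zinc, were at 107 and 693 CPM in Ctrl and at 348 and 1270 CPM in dKO, and Tsc22d3, a glucocorticoid-induced leucine zipper, at 221 and 369 CPM, although with the rule on thinned cells Tsc22d3 was not past the limit (0.17 on the log2 scale). Hmox1, which degrades haem, was at 1670 (1600 to 1740) CPM and 2730 (2620 to 2840) CPM, but its log2 difference was 0.23 with at least 2 rule genes, and it was 1 of 2 genes that were higher among 13 compared of iron and haem handling. Fth1, the heavy chain of ferritin, was at 16600 and 19200 CPM and under the limit, and the sum of the list differed by a log2 of 0.01.

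Genes of monocytes were lower. Of 16 genes 8 were compared, and 6 (75%) were lower and 1 (12.5%) higher, against 5.04% and 6.58% of all genes compared. The sum went from 8980 CPM in Ctrl to 5400 CPM in dKO, a ratio of 0.601 (0.581 to 0.622). Ccr2, the receptor through which monocytes leave the marrow, was at 207 (183 to 232) CPM in Ctrl and 79.7 (61.9 to 101) CPM in dKO, and was found in 41.7% and 16.1% of cells (22.7% and 11.1% thinned). In FAPs, which should lack Ccr2 and had median depths of 12510 and 12911 UMIs, it was found in 1.48% and 0.709% of cells. Its ratio was 0.385 (0.291 to 0.504) in resident macrophages, 0.959 in other macrophages and 1.02 in monocytes. Cx3cr1, the fractalkine receptor, was at 103 (86.9 to 122) CPM and 25.8 (16.2 to 39) CPM. S100a4 was at 1240 and 565 CPM, Thbs1, a matrix protein, at 667 and 334 CPM and Lyz2, lysozyme, at 4740 and 3040 CPM, while Plac8 went the other way, at 86.2 and 170 CPM. With the rule on thinned cells S100a4 (-0.45 on the log2 scale), Thbs1 (-0.16) and Plac8 (0.4) were not past the limit, and with at least 4 rule genes Cx3cr1 (-0.43) was not. Lyz2, which gave 53.7% of the list's UMIs, was not past it with at least 2 rule genes (-0.38). The ratio of the list was 0.699, 0.482 and 0.573 in cells with 3, 4 and 5 or 6 rule genes, and 0.828 in other macrophages.

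Lipid-associated macrophage genes differed by gene. Of 20 genes 18 were compared, and 6 (33.3%) were lower and 0 higher, against 5.04% and 6.58% of all genes compared. The median log2 difference was -0.41, while the ratio of the sum was 0.904. Apoe, a lipid carrier that gave 42.4% of the sum, was at 15900 CPM in Ctrl and 18500 CPM in dKO and under the limit. Spp1 was at 1840 and 577 CPM, but 643 of its 2471 Ctrl UMIs sat in 1 cell, without which the ratio was 0.364 (0.327 to 0.405). Gpnmb was at 762 and 312 CPM. Fabp5, a fatty acid binding protein, was at 1260 and 731 CPM, Lpl, lipoprotein lipase, at 1160 and 656 CPM and Cd9, a tetraspanin, at 196 and 75 CPM. In cells with 3, 4 and 5 or 6 rule genes the ratio of the sum was 0.999, 0.993 and 0.729. Spp1, Fabp5, Lpl, Cd9 and Syngr1 turned to higher in dKO when the rule was applied to thinned cells, so their direction rests on how cells were chosen. Mmp12, a macrophage elastase, was at 573 and 15.2 CPM, with 388 of 770 Ctrl UMIs in 1 cell, and its log2 difference of -5.23 was 0.01 with the rule on thinned cells. Gpnmb was not past the limit with at least 2 rule genes (-0.52 on the log2 scale) or with at least 4 (-0.4). Mfge8, a bridge to dying cells, was at 141 and 16.4 CPM but higher in dKO when 2 rule genes sufficed.

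Scavenger and lectin receptors split, with 4 of 15 compared higher (26.7%) and 4 lower (26.7%), against 6.58% and 5.04% of all genes compared. Stab1, a scavenger receptor of resident macrophages, was at 391 (358 to 426) CPM in Ctrl and 175 (148 to 205) CPM in dKO, and Cd36, which takes up oxidised lipids, at 891 and 510 CPM. Mgl2 was at 117 and 193 CPM and Colec12 at 37.9 and 63.3 CPM, but with the rule on thinned cells the log2 difference was 0.27 for Mgl2, -0.25 for Colec12 and -0.34 for Cd36, which ended these calls. The 25 genes of the resident programme outside the rule had a summed ratio of 1.17, with 4 of 20 compared higher and 2 lower. On the log2 scale this sum was 0.22, but -0.21 with the rule on thinned cells. Folr2 was at 762 and 881 CPM and Gas6 at 445 and 575 CPM, neither past the limit. Selenop, a selenium carrier, was at 5100 and 4120 CPM. In cells with 5 or 6 rule genes the summed ratio of that programme was 0.833, against 1.13 with 3 and 1.27 with 4.

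The complement list had a ratio of 1.27 as a sum, and its direction depended on the cells. Of 11 genes compared 2 were higher (18.2%) and 3 lower (27.3%), against 6.58% and 5.04% of all genes compared. The ratio was 1.39, 1.27 and 0.927 (0.885 to 0.97) in cells with 3, 4 and 5 or 6 rule genes. C1qa was at 3840 and 5390 CPM, Cfb, which drives the alternative pathway, at 85.5 and 189 CPM, and C4b at 112 and 206 CPM. With the rule on thinned cells the log2 difference of C4b was 0.14, against 0.88, which ended its call. C3 was at 98.1 and 58.6 CPM, but 74 of its 132 Ctrl UMIs sat in 1 cell, without which the ratio was 1.15 (0.752 to 1.73).

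MHC class II had a summed ratio of 1.14 (1.1 to 1.18), and its sign depended on the cells. Of 8 genes compared 1 was higher (12.5%) and 1 lower (12.5%), against 6.58% and 5.04% of all genes compared. The ratio was 1.46 in cells with 3 rule genes and 0.764 and 0.893 with 4 and with 5 or 6, against 1.36 in other macrophages. Over 12 alternatives the log2 difference lay between -0.29 and 0.4. Among 13 macrophage transcription factors compared, 0 were called in either direction, and Maf was at 747 CPM in Ctrl and 705 CPM in dKO. Of 18 trophic and matrix factors compared, Pdgfc was higher, at 34.9 and 63.3 CPM, but not with the rule on thinned cells (0.13 on the log2 scale), and 4 were lower. Igf1, a growth factor for muscle, was at 393 and 348 CPM and under the limit.

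**Figure D5:**
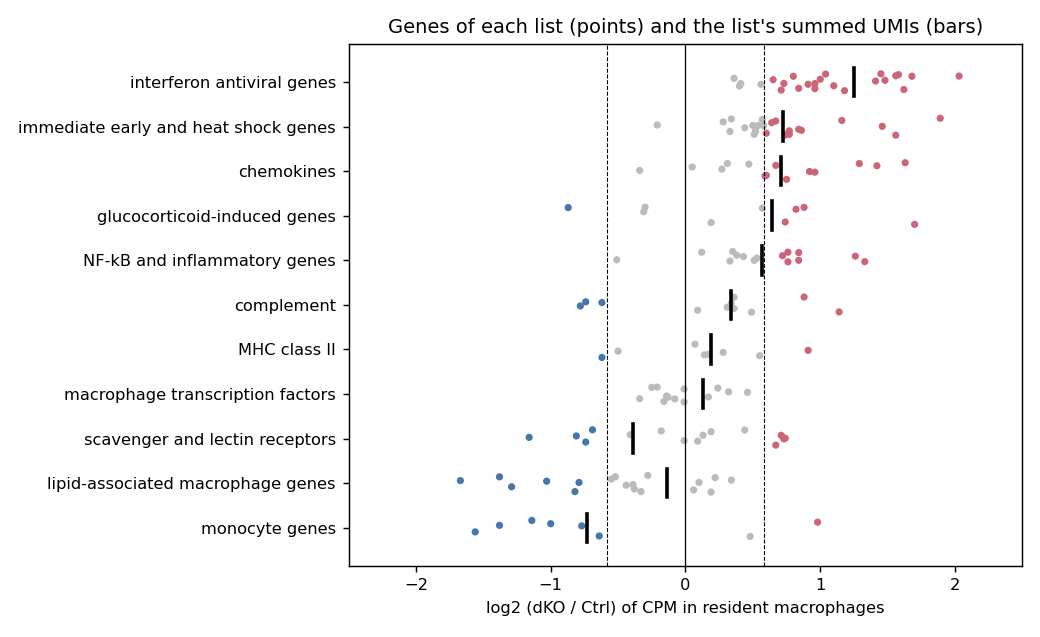
Points are the compared genes of each list and black bars the list's summed UMIs, as the log2 ratio of CPM in dKO over Ctrl resident macrophages, with dashed lines at 1.5-fold and coloured points beyond them. The bar of the interferon antiviral genes stands at 1.25 and that of the monocyte genes at -0.73.

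Outside the lists, the highest dKO to Ctrl ratios were those of Vcam1, an adhesion molecule, and Ly6a, which interferon induces in many cells. Vcam1 was at 9.67 (5.15 to 16.5) CPM in Ctrl and 109 (88 to 134) CPM in dKO, with 34 of its 93 dKO UMIs in 1 cell and a ratio of 9.35 when the top cell of each library was left out. Ly6a was at 63.2 (50.5 to 78.1) CPM and 451 (407 to 499) CPM, and was higher with the top cells left out too, by a ratio of 9.94. Itga6, an integrin chain, was at 69.1 and 12.9 CPM, and Acp5, an acid phosphatase, at 107 and 34 CPM, but with the rule on thinned cells their log2 differences were -0.25 and -0.21, against -2.42 and -1.66, which ended both calls. S100a9, S100a8 and Retnlg, granule and neutrophil genes, had 624, 457 and 288 UMIs in Ctrl and 0, 2 and 0 in dKO. Of these, 597, 429 and 283 sat in 1 Ctrl cell that held 4 rule genes and 10564 UMIs. Against a limit of 3 counts, S100a9 was at least 132-fold lower in dKO with that cell and at least 5.76-fold lower without it.

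The split by Lyve1 detection followed the same lines within resident macrophages, where a Lyve1 UMI was found in 72 of 163 Ctrl and 67 of 124 dKO cells. With thinning it was found in 36 of 154 and 50 of 117. In FAPs, which should lack Lyve1, it was found in 0.53% and 1.01% of cells. In thinned cells the MHC class II sum in cells with Lyve1 was 0.784 (0.7 to 0.877) of that in cells without in Ctrl and 0.371 (0.329 to 0.417) in dKO. Spp1 was at 0.105 (0.0497 to 0.195) and 0.0684 (0.0217 to 0.165) of its level in cells without. Folr2 was 2.21 and 1.87 times and Ccl8 4.65 and 2.83 times higher in cells with Lyve1. Interferon antiviral genes were 1.75 times higher in Ctrl and 1.54 times in dKO. Without thinning, Spp1 was at 0.345 and 0.274 of its level in cells without Lyve1, and Ccl8 was 8.78 and 3.58 times higher in cells with it. Lyve1 is a rule gene, so these values describe the cells and are no test.

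Markers of other cell types were low but not the same in both libraries. The 5 T and NK cell genes in the files had 0 UMIs in resident macrophages of either library, but 1 of them, Cd3e, was 0 by the rule. Pdgfra, Cdh5 and Cd79a were 0 by the rule too. The 7 FAP markers summed to 709 CPM in Ctrl and 360 CPM in dKO, a ratio of 0.507 (0.444 to 0.577), from 0 to 244 UMIs per Ctrl cell and 0 to 16 per dKO cell, and the same list had a ratio of 1.83 in other macrophages. The 7 neutrophil markers summed to 1090 and 45.7 CPM, with 92.9% of the Ctrl UMIs in the 1 cell named above. The 6 endothelial markers summed to 214 and 148 CPM, mostly Fabp4, which macrophages also express. Pax7 and Myod1, which mark muscle stem cells, were at 0 in both libraries. The part of free RNA or doublets in the differences between the libraries was not tested. Removal of the highest doublet scores took 6 of the 163 Ctrl and 0 of the 124 dKO resident macrophages, and the log2 difference of S100a8 went from -7.18 to -3.14 with it.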

How the data were processed

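The authors prepared single cell libraries on the 10x Chromium system from live sorted cells, sequenced them and deposited UMI counts per gene and barcode, neither normalized nor filtered after cell calling. The submitters' notes name Cell Ranger 7.0.0, mm10, Seurat 4.3.0 and Cufflinks, whereas the file headers name Cell Ranger 3.0.2. No mitochondrial gene is listed. The files hold 4527 and 3483 barcodes. The study states its cell filter in more than 1 form and gives 4335 and 3329 cells after filtering and doublet removal. Here its minimum of 500 genes alone leaves 4335 and 3329, and its minimum of 200 genes and 1000 UMIs leaves 4295 and 3306.

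The rule for resident macrophages and the gene lists were chosen with earlier results of these data known. UMIs were summed over the cells of a class and divided by the class total. Intervals of levels are exact Poisson, ratio intervals come from the exact binomial distribution conditional on the sum of both counts, shares have exact Clopper-Pearson intervals, and differences of shares have Newcombe intervals. All cover counting error only, as 1 library per group leaves no replicate error. A gene was called at 1.5-fold, with at least 100 UMIs in resident macrophages of both libraries together. Monocytes had at least 5 UMIs of Ly6c2 and Chil3 together and fewer than 3 rule genes. The Spp1+ subset had at least 3 of Spp1, Gpnmb, Trem2, Syngr1, Mmp12 and Fabp5, and the Ear2+ subset Ear2 and Retnla.

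Genes were named by rule: the 8 markers, the 12 highest and the 12 lowest dKO to Ctrl ratios, the 15 highest ratios to other macrophages, the called genes and the 4 genes with most UMIs in each list, and Yy1. A few others were named after their values were seen. Scrublet in scanpy 1.11.5 called 4 Ctrl and 14 dKO cells, too few to have worked, so doublets were kept and removal of the top 7.5% of scores was an alternative. The calculations used python 3.11.15, numpy 2.4.6, scipy 1.17.1 and pandas 2.3.3, and were tested on simulated data. Gene positions came from GENCODE M21 (GRCm38) and promoters from RefSeq. Some results are not reported here.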

Additional observations from a re-analysis of the deposited data

Results flagged for a closer look

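Several matrix genes were lower in dKO resident macrophages and higher in dKO other macrophages, in part depending on which cells were chosen. The dKO to Ctrl ratio in resident macrophages was 0.314 for Dcn, 0.42 for Sparc, 0.472 for Col3a1 and 0.609 for Col1a2, and in other macrophages it was 2.72, 2.46, 1.77 and 2.57. C3, a complement component that FAPs also express, had a ratio of 0.597 against 1.99. In Ctrl resident macrophages 74 of 132 C3 UMIs and 71 of 211 Dcn UMIs sat in 1 cell each, and without the top cell of each library the ratios were 1.15 and 0.437. The log2 difference in resident macrophages became positive for Dcn without cells holding markers of other types (0.19) and with at least 2 rule genes (0.43), for Col1a2 with at least 2 rule genes (0.27) and for Sparc with the rule on thinned cells (0.27). That of Col3a1 stayed between -1.19 and -0.09. Dcn, Col3a1 and Col1a2 are themselves FAP markers, and the sum of the 7 FAP markers, which includes them, had a ratio of 0.507 in resident and 1.83 in other macrophages.

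Hspb1, a small heat shock protein, had a ratio of 3.75 in resident macrophages and 0.361 in monocytes. Of its 832 dKO UMIs in resident macrophages 193 sat in 1 cell, and without the top cell of each library the ratio was 3.39. With at least 2 rule genes its log2 difference was 0.57, against 1.91, which was not past the 1.5-fold limit. With 1 library per group, none of these differences between cell classes was tested, and their causes were not tested.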

How the results depend on the processing

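No paired analysis was possible because each group had 1 library. The higher interferon antiviral, chemokine and stress (immediate early and heat shock) sums kept their direction under each of 12 alternatives. On the log2 scale (main values 1.25, 0.71 and 0.72, in this order), they were 1.20, 0.53 and 0.52 with at least 2 rule genes, 1.20, 0.74 and 0.43 with at least 4, and 0.90, 0.75 and 0.29 with the rule on thinned cells. They were 1.29, 0.75 and 0.76 scaled by the median ratio of genes, 1.07, 0.63 and 0.56 as the mean of each cell's own CPM, 1.30, 0.67 and 0.69 without the top cell of each library, 1.13, 0.84 and 0.68 without the gene with most UMIs, and 1.30, 0.77 and 0.58 in cells with a Lyve1 UMI. The stress sum was 0.75 without the highest doublet scores and 0.74 without cells holding markers of other types.

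With at least 2 rule genes, the difference in share was -5.86 points of gated macrophages and -1.83 points of all cells, whereas the difference in gated macrophages was 1.54 points with at least 4 and 2.04 points with the rule on thinned cells, both within counting error. Genes higher and lower (201 and 154) numbered 302 and 215 with at least 2 rule genes, 105 and 92 with at least 4, 96 and 55 with the rule on thinned cells, 368 and 418 at 50 UMIs, 97 and 65 at 200 UMIs, and 50 and 36 at 2-fold. Of the 201 and 154, the rule on thinned cells shared 45 and 12, with 963 genes compared.

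Directions turned for single genes. With the rule on thinned cells (62 Ctrl and 64 dKO cells), log2 values became positive for Fabp5 (1.89), Sgk1 (0.82), Fn1 (0.81), Cd9 (0.75), Spp1 (0.73), Lgals3 (0.51), Anxa2 (0.38), Lpl (0.32), Sparc (0.27), Syngr1 (0.27), Lrp1 (0.10), Cytip (0.01) and Mmp12 (0.01), and negative for Cxcl10 (-0.66), Btg2 (-0.26), Colec12 (-0.25), Ifi211 (-0.13), Nr4a1 (-0.09) and Socs3 (-0.09). With at least 2 rule genes they became positive for Dcn (0.43), Mfge8 (0.31), Col1a2 (0.27), C3 (0.13) and Gsn (0.10), and with at least 4 they turned for Sgk1 (0.51), Cytip (0.15) and Cxcl10 (-0.29). C3 turned without the highest doublet scores (0.37), without cells holding markers of other types (0.34) and without the top cell (0.20), and Dcn (0.19) without cells holding markers of other types. The MHC class II ratio of cells with to cells without Lyve1 in dKO was 0.54 without thinning and 0.371 with it. The cause was not tested. Among other values of single genes and lists, 2139 stayed within counting error and 604 moved beyond it. Resident macrophages held few UMIs, so most genes in the files could not be compared, and neither pool nor preparation can be told apart from genotype. Leaving out 1 Ctrl cell and the top cells was chosen after seeing the data, as were the cells with a Lyve1 UMI.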

Other observations

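Among chemokine receptors, 0 of 6 compared genes were higher and 2 lower (Ccr2 and Cx3cr1) in dKO resident macrophages, with a summed ratio of 0.751 (0.673 to 0.838). Among efferocytosis genes, which serve uptake of dying cells, 0 of 10 were higher and 2 lower (Mfge8 and Stab1). Of 9 alternative activation genes 2 were higher and 1 lower, and Retnla, a secreted protein of such macrophages, was at 1060 CPM in Ctrl and 1320 CPM in dKO. Ccl24, a rule gene, was 1 of the 2, and the list also holds the rule gene Cd163. Of 4 interferon-gamma GTPases and partners 2 were higher, Gbp2 and Gbp7, and 0 lower, with a summed ratio of 1.54 (1.36 to 1.75). Gbp2 was not past the limit with at least 2 rule genes (0.45 on the log2 scale), nor Gbp7 with the rule on thinned cells (0.26). Of 5 coagulation and plasminogen genes 0 were higher and 2 lower, and the rule gene F13a1 gave 31.5% of the UMIs of that list. Of 15 growth factor receptors and survival genes 1 was higher and 1 lower. The background over all 3054 genes was 6.58% higher and 5.04% lower.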
